A study of Mus musculus with 9 samples.

Results

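Krüppel-like factors (KLFs) are zinc finger transcription factors, and 10 of their genes (Klf2, Klf3, Klf4, Klf5, Klf6, Klf7, Klf9, Klf10, Klf11 and Klf13) were followed across a photodynamic intervention (PDT) on B.END3 cells, an immortalised endothelial line from mouse brain. The 10 genes were taken by name from the 54532 genes of the expression table, by a list drawn up with earlier results of these data known, and each name matched 1 Ensembl gene. RNA sequencing covered 9 libraries, 3 in each of 3 groups. Ctrl cells were labelled as untreated. Ep1 and Ep2 cells grew to a monolayer, took up porfimer sodium, a porphyrin photosensitizer, at 300 µg/mL for 90 min, and were then irradiated at 635 nm and 100 mW/cm2, to a light dose of 10 J/cm2 in Ep1 and 20 J/cm2 in Ep2. The labels give the strain C57BL/6 for all groups. No library with photosensitizer alone or light alone was analysed here, so the 2 cannot be told apart, and the time from irradiation to lysis is not given in the sources used here. Whether the 3 libraries of a group came from separate cultures is not stated, so p-values measure only the spread between these libraries.

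KLFs bind GC-rich and CACCC sequences through 3 zinc fingers at the carboxyl end, and their amino ends recruit either activators or repressors. KLF2 and KLF4 are best known in endothelium, where laminar flow induces them through the kinases MEK5 and ERK5 and the MEF2 factors, and where they favour an anticoagulant and anti-inflammatory state. KLF5, KLF6 and KLF7 also belong to the activating group, KLF3 represses through CtBP, and KLF9, KLF10, KLF11 and KLF13 recruit the SIN3 and histone deacetylase complex.

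Expression was given in FPKM, fragments scaled to gene length and to library size, so levels of different genes are comparable per length. The libraries held 16240688 to 19509225 fragments, and mitochondrial genes took 1.90% to 1.99% of them in Ctrl, up to 2.08% in Ep1 and 2.04% to 2.49% in Ep2, with the highest share in Ep2 replicate 3. All treated libraries thus lay above Ctrl in this share, and its part in the KLF values was not tested. All 10 KLF genes passed the filter of at least 1 FPKM in at least 3 libraries, with 59 fragments in the library with the lowest count (Klf2) and up to 2899 in that with the highest (Klf6). The endothelial identity in the labels was backed by only part of its markers. Of 12 endothelial markers, 3 passed the filter (Flt1, Eng and Egfl7), while Emcn and Erg were at 0 in all libraries and Pecam1, Cdh5, Cldn5 and Kdr had means of 0.143, 0.857, 0.025 and 0.041 FPKM in Ctrl. Summed over the 12, the level ran from 11.3 to 11.9 FPKM in the Ctrl libraries, from 11.3 to 12.9 in Ep1 and from 14.3 to 15.4 in Ep2. Of the 3 tested, Flt1, a receptor for vascular endothelial growth factor, had 0.06 in Ep1 (adjusted p = 0.591) and rose in Ep2 from 6.90 to 10.9 mean FPKM (log2 fold change 0.59, adjusted p = 9.67e-05), while Eng (-0.13 at each dose) and Egfl7 (0.06 in Ep1 and -0.25 in Ep2) were not called. Of 9 epithelial markers, 4 passed, led by the keratin Krt8 at 640 FPKM in Ctrl, with Krt5 and Krt7 at 0 in all libraries. Krt18, Krt19 and Epcam rose in Ep2 (log2 fold changes 0.37, 0.70 and 0.61), as did 23.9% of all tested genes. Krt8 was not called there (0.04, adjusted p = 0.53). In Ep1, Krt8 had -0.14 (adjusted p = 0.132), Krt18 0.03 (0.783), Krt19 -0.21 (0.286) and Epcam -0.00 (0.996). Summed over the 9, it ran from 1029 to 1081 FPKM in the Ctrl libraries, from 937 to 1041 in Ep1 and from 1155 to 1373 in Ep2. Of 7 pericyte and fibroblast markers only Col1a1 passed (-0.19 in Ep1 and -0.05 in Ep2, neither called), and of 4 astrocyte and 4 immune markers none did. Fewer cells of a type and less RNA per cell cannot be told apart in such bulk libraries, and the part of these marker levels in the KLF values was not tested.

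The starting levels of the KLF genes differed widely. In Ctrl, Klf10 stood first (18.4 ± 0.329 FPKM, SD, n = 3), followed by Klf6 (16.1 ± 0.984), Klf9 (11.6 ± 0.703), Klf13 (10.2 ± 0.594), Klf5 (5.59 ± 0.0707), Klf4 (5.10 ± 0.278), Klf3 (4.08 ± 0.118), Klf2 (2.53 ± 0.470), Klf7 (1.64 ± 0.113) and Klf11 (0.936 ± 0.214). No neighbours in this order overlapped in their 3 values. After PDT the order changed at the top, and Klf6 stood first in both Ep1 (28.3 ± 6.53) and Ep2 (26.2 ± 2.43). In Ep2, Klf6 and Klf10 overlapped, as did Klf9, Klf5, Klf13 and Klf4, each with the next. In Ep1 the overlapping neighbours were Klf4 with Klf13, and Klf3, Klf2, Klf7 and Klf11, each with the next. The sum of the 10 levels was 76.1 ± 1.75 FPKM for Ctrl, 106.8 ± 14.6 for Ep1 and 115.2 ± 9.35 for Ep2. The file lists 17 Klf names in all. Klf16, which is not among the 10, lay at 22.5 to 38.2 FPKM over the 9 libraries, and Klf14, Klf15 and Klf17 were listed at 0.

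The 10 genes lie on 10 different chromosomes, and all positions refer to GRCm38. Promoters of 8 of them could be read from RefSeq on GRCm38.p6, and Klf5 and Klf10 did not match. The 250 bases before the start are printed for Klf4, Klf6 and Klf9, which rose at both doses, and for Klf2, which did not pass the test at either dose although it shares its known flow response with Klf4. Capitals mark GGGCGG (the GC box bound by SP factors and KLFs), TGACG (the core of cAMP response elements), CCAAT (the NF-Y site) and the MEF2 site, each on either strand. The motifs were chosen after the expression values were seen.
Klf4 (chr4:55532476-55532725, minus strand): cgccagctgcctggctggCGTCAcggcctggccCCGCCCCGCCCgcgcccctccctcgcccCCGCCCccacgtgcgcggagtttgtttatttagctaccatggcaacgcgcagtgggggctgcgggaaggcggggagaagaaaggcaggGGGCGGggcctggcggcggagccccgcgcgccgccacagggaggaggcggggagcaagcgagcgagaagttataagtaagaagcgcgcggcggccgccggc
Klf6 (chr13:5861239-5861488, plus strand): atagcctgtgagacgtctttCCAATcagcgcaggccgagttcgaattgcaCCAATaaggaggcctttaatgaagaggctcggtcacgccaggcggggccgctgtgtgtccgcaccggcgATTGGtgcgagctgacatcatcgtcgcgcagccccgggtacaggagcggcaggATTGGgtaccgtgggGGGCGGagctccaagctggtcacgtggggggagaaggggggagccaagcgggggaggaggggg
Klf9 (chr19:23140976-23141225, plus strand): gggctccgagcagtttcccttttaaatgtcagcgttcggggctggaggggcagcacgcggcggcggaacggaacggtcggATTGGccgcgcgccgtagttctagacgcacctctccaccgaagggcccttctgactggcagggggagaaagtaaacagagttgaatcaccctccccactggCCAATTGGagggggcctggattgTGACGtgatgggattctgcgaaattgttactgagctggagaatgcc
Klf2 (chr8:72318812-72319061, plus strand): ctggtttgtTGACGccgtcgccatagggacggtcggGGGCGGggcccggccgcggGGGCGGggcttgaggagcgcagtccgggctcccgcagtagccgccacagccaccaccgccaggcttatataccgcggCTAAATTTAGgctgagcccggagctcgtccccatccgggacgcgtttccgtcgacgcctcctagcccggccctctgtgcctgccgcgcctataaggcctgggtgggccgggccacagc
The printed promoters are rich in G and C, and their matches differ. The median GC content of the 8 promoters was 71.4%, against 52.4% for all 32851 promoters of the same length. GGGCGG stood in 7 of the 8 (all but Klf9) and in 32.7% of all promoters. TGACG stood in Klf2, Klf4, Klf9 and Klf13 and in 17.8% of all, and CCAAT in Klf6, Klf9, Klf11 and Klf13 and in 33.8% of all. The MEF2 site was found only in Klf2 among the 8, at bases -118 to -109 from the start, and in 2.92% of all promoters. In Klf4 a pair of GC boxes shares 1 base, and in Klf9 a pair of CCAAT matches on opposite strands overlaps. Of the other motifs searched, CACCC (the KLF element) stood in 5 promoters (52% of all), TGACNNNGC (the core of antioxidant response elements) in Klf3 and Klf6 (10.2% of all), TGANTCA (the AP-1 site) in Klf9 (6.75% of all), where it overlaps a CACCC match, and TATAAA and the CArG box of serum response factor in none (12.4% and 1.47% of all). These are matches of letters in a window, not sites of binding.

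The first question of the design was which KLF genes changed at each light dose. At 10 J/cm2, Klf4, Klf5, Klf6, Klf9 and Klf11 rose, and at 20 J/cm2, Klf3, Klf4, Klf5, Klf6, Klf7, Klf9 and Klf10 rose. None fell at either dose, and Klf2 and Klf13 did not pass the test at either. The largest fold changes were those of Klf4 in Ep1 (2.18-fold between mean FPKM) and of Klf5 in Ep2 (2.23-fold). Of all 11727 genes tested with limma, 6.32% rose and 4.97% fell in Ep1, and 23.9% rose and 29.3% fell in Ep2 (adjusted p below 0.05), so that 5 of 10 KLF genes stood against 6.32% and 7 of 10 against 23.9%. The split of all genes moved with normalisation. After median centring, 691 rose and 662 fell in Ep1, from 741 and 583. In Ep2, 3311 rose and 2971 fell, from 2800 and 3436. At an unadjusted p below 0.05, and with limma's voom on recovered fragments, 0 KLF genes were lower at either dose. With voom, 844 of 14112 genes were lower in Ep1 and 3673 in Ep2, so 0 of 10 in Ep1 is near the share of all genes. The share of all genes at the unadjusted threshold is not given here. The median log2 fold change of the 10 genes was 0.38 in Ep1 and 0.48 in Ep2, on the log2(FPKM + 1) scale used throughout, while that of all tested genes was -0.009 and -0.029. With the added requirement of a log2 fold change above 0.6, Klf4 and Klf6 remained in Ep1 (0.571% of all genes) and Klf4, Klf5 and Klf6 in Ep2 (3.3% of all). This cutoff depends on the pseudocount of 1. With a pseudocount of 0.1, Klf5 (0.64) and Klf11 (0.87) in Ep1 were also called and above 0.6. The share of all genes in that setting is not given here. All 3 libraries lay above all 3 of Ctrl for 7 KLF genes at each dose, as for 20.8% of all genes in Ep1 and 27% in Ep2. The 2 comparisons share the Ctrl libraries and are not independent of each other. Omission of Ctrl replicate 1 or of Ctrl replicate 2 left 2 KLF genes called in Ep1, and omission of Ep1 replicate 3 left 1 (Klf5), settings in which the number of all genes that rose also fell from 741 to 237, 115 and 117.

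**Figure D1:**
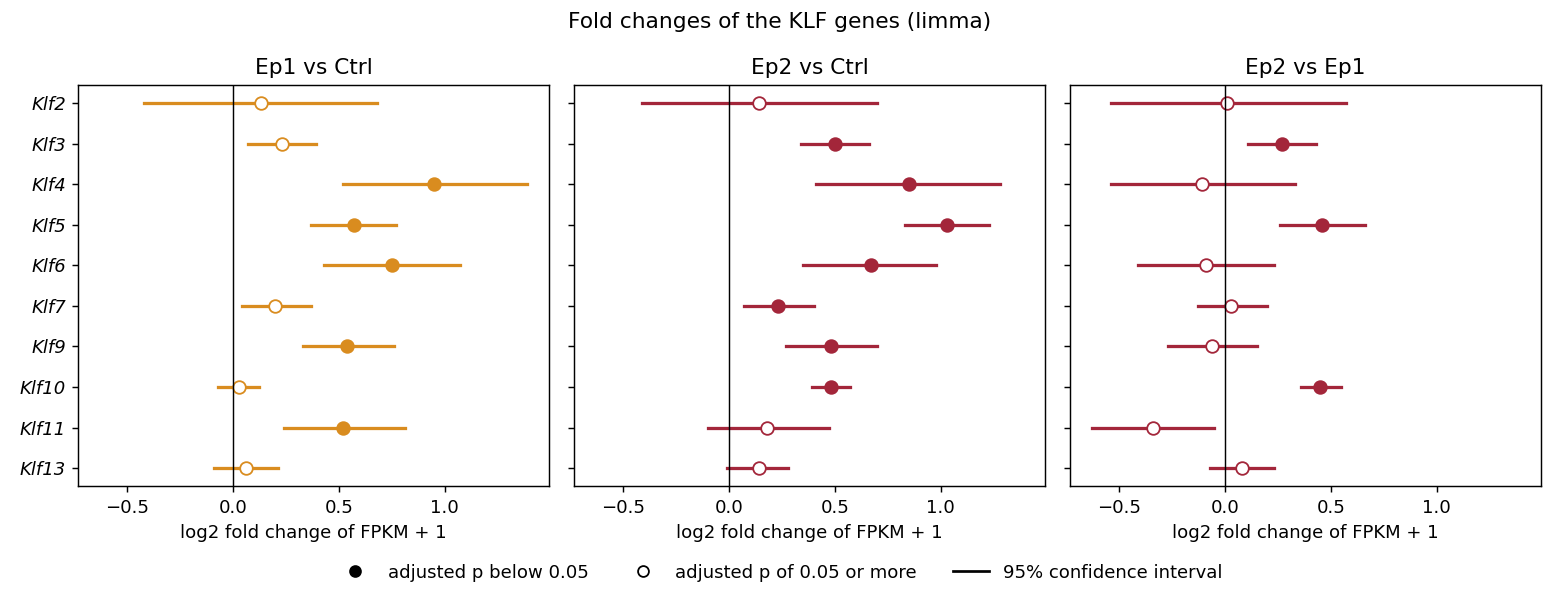
Log2 fold changes of FPKM + 1 (x axis) of the 10 KLF genes in Ep1 vs Ctrl, Ep2 vs Ctrl and Ep2 vs Ep1, with 95% confidence intervals from limma (lines) and filled points for an adjusted p below 0.05. Klf4, Klf5, Klf6 and Klf9 are filled at both doses, Klf10 is near 0 in Ep1 (0.03) and at 0.48 in Ep2, and Klf2 has the widest intervals.

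Among the activating KLFs, Klf4 (ENSMUSG00000003032, chr4:55527143-55532466) had values of 5.41, 4.88 and 5.00 FPKM in the Ctrl libraries, 15.2, 8.995 and 9.15 in Ep1, and 8.84, 9.17 and 12.2 in Ep2. All treated libraries lay above all Ctrl libraries, and Ep1 replicate 1 and Ep2 replicate 3 stood above the others of their groups. The log2 fold change of Klf4 was 0.95 in Ep1 (SE 0.19, adjusted p = 0.0214) and 0.85 in Ep2 (SE 0.19, adjusted p = 0.00581). Without Ep1 replicate 1 it was 0.73 in Ep1 (adjusted p = 0.0301), whereas the call was lost without Ctrl replicate 1 (adjusted p = 0.0631), Ctrl replicate 2 (0.0878) or Ep1 replicate 3 (0.0513), and without a filter on low values (0.0563).

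Klf2 (ENSMUSG00000055148, chr8:72319033-72321656), the other flow-responsive factor, had 3.03, 2.46 and 2.10 FPKM in Ctrl, 4.93, 1.90 and 2.30 in Ep1, and 2.95, 2.66 and 3.03 in Ep2. The groups overlapped, and Ep1 replicate 1 alone stood high, so that the SD in Ep1 was 53.9% of the mean. The fold changes of 0.13 in Ep1 (95% interval -0.42 to 0.68, adjusted p = 0.759) and 0.14 in Ep2 (-0.41 to 0.70, adjusted p = 0.644) did not pass the test, and without Ep1 replicate 1 the value in Ep1 was -0.18 (adjusted p = 0.385). With 59 to 168 fragments per library, Klf2 was among the least covered of the 10, and its intervals include changes of the size seen for Klf9.

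Klf5 (ENSMUSG00000005148, chr14:99298691-99315036), which drives proliferation in epithelium and in injured vessel walls, showed the largest change in Ep2 and the tightest Ctrl group. Its level was 5.64, 5.61 and 5.51 FPKM in Ctrl, 9.97, 7.98 and 8.48 in Ep1, and 11.4, 11.9 and 14.2 in Ep2. No groups overlapped, and each dose lay above the one below it. The log2 fold change of Klf5 was 0.57 in Ep1 (SE 0.089, adjusted p = 0.00924) and 1.03 in Ep2 (SE 0.089, adjusted p = 2.13e-05). Both calls held without each library in turn and under the other settings tried, except the minimum log2 fold change of 0.6. The 0.57 misses that minimum, whereas the value with a pseudocount of 0.1 (0.64) exceeds it.

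Klf6 (ENSMUSG00000000078, chr13:5861482-5870394), induced in endothelium after vascular injury, had the highest mean of the 10 in Ep1 and in Ep2. It had 15.8, 15.3 and 17.2 FPKM in Ctrl, 35.8, 23.6 and 25.6 in Ep1, and 23.6, 26.5 and 28.5 in Ep2. Its Ep2 values overlapped with those of Klf10, with means of 26.2 and 26.0 FPKM. Both treated groups lay above Ctrl, and Ep1 replicate 1 held the highest value. For Klf6 the log2 fold change was 0.75 in Ep1 (SE 0.14, adjusted p = 0.0161), 0.58 without Ep1 replicate 1 (adjusted p = 0.0259), and 0.67 in Ep2 (SE 0.14, adjusted p = 0.00385). The call in Ep1 was lost without Ctrl replicate 1 (adjusted p = 0.0601), Ctrl replicate 2 (0.0718) or Ep1 replicate 3 (0.051).

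Klf7 (ENSMUSG00000025959, chr1:64029447-64122282), known from neuronal outgrowth, was low throughout, with 1.76, 1.62 and 1.54 FPKM in Ctrl, 1.81, 2.23 and 2.07 in Ep1, and 2.10, 2.04 and 2.16 in Ep2. Both treated groups lay above Ctrl by a small margin. Its difference from Ctrl was 0.20 in Ep1 (adjusted p = 0.104) and 0.23 in Ep2 (SE 0.073, adjusted p = 0.0221), and the call in Ep2 was lost without Ctrl replicate 2 (adjusted p = 0.0599), Ctrl replicate 3 (0.0669) or Ep2 replicate 3 (0.061). Within the Klf7 locus lies Gm13748 (ENSMUSG00000086836), a gene on the opposite strand, with 0.713 to 2.47 FPKM from 5 to 18 fragments. Whether the counting used strand is not given in the sources used here, so fragments of the 2 genes may be shared and the level of Klf7 is uncertain. Gm13748 itself did not pass the test in Ep2 (log2 fold change 0.18, adjusted p = 0.572).

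Klf3 (ENSMUSG00000029178, chr5:64803388-64832901), the CtBP-dependent repressor, rose with the dose. It had 4.22, 4.01 and 4.02 FPKM in Ctrl, 5.27, 4.64 and 4.95 in Ep1, and 5.56, 6.22 and 6.83 in Ep2, and no groups overlapped. Klf3 differed from Ctrl by 0.23 in Ep1 (SE 0.071, adjusted p = 0.0689), which passed the threshold with voom (adjusted p = 0.0192) and when only Ep1 and Ctrl were fitted (0.0301). In Ep2 it was 0.50 (SE 0.071, adjusted p = 0.000343).

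Of the SIN3-binding KLFs, Klf9 (ENSMUSG00000033863, chr19:23141226-23166911), a glucocorticoid target, had 11.95, 12.1 and 10.8 FPKM in Ctrl, 18.0, 17.1 and 17.1 in Ep1, and 14.0, 17.1 and 19.1 in Ep2. Both treated groups lay above Ctrl, and the Ep1 libraries lay close together, with an SD of 2.93% of the mean. The log2 fold change of Klf9 was 0.54 in Ep1 (SE 0.095, adjusted p = 0.0118, 0.0509 without Ep1 replicate 3) and 0.48 in Ep2 (SE 0.095, adjusted p = 0.00211). Klf13 (ENSMUSG00000052040, chr7:63886351-63938915), which activates chemokine genes in T cells and is widely expressed, had 10.6, 10.4 and 9.48 FPKM in Ctrl, 11.3, 10.4 and 10.1 in Ep1, and 11.5, 10.3 and 11.98 in Ep2. These groups overlapped. Klf13 reached only 0.06 on the log2 scale in Ep1 (adjusted p = 0.6) and 0.14 in Ep2 (95% interval -0.01 to 0.28, adjusted p = 0.115), and in Ep2 it passed after median centring (adjusted p = 0.0453) and without Ep2 replicate 2 (0.0432).

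Klf10 and Klf11 are a pair of early genes of TGF-β signalling. Klf10 was called in Ep2 and Klf11 in Ep1. Klf10 (ENSMUSG00000037465, chr15:38291463-38300706) had 18.6, 18.0 and 18.5 FPKM in Ctrl, 19.1, 18.0 and 19.2 in Ep1, and 25.5, 26.8 and 25.8 in Ep2. The Ep1 libraries overlapped with Ctrl, and all Ep2 libraries lay above both groups. Klf10 thus had a log2 fold change of 0.03 in Ep1 (95% interval -0.07 to 0.12, adjusted p = 0.681) and 0.48 in Ep2 (SE 0.042, adjusted p = 2.23e-05).

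Klf11 (ENSMUSG00000020653, chr12:24651274-24662789) was the lowest of the 10, with 1.15, 0.719 and 0.943 FPKM in Ctrl, 2.25, 1.497 and 1.63 in Ep1, and 1.04, 1.16 and 1.39 in Ep2. Here the Ep1 libraries lay above both other groups, and those of Ctrl and Ep2 overlapped. For Klf11 the log2 fold change came to 0.52 in Ep1 (SE 0.13, adjusted p = 0.0327) and 0.18 in Ep2 (adjusted p = 0.251). The call in Ep1 rests on few fragments, 61 to 180 per library, and was lost without Ctrl replicate 1 (adjusted p = 0.0548), 2 (0.124) or 3 (0.0631), without Ep1 replicate 1 (0.0998) or 3 (0.0827), without Ep2 replicate 2 (0.0503), and without a filter on low values (0.0884).

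**Figure D2:**
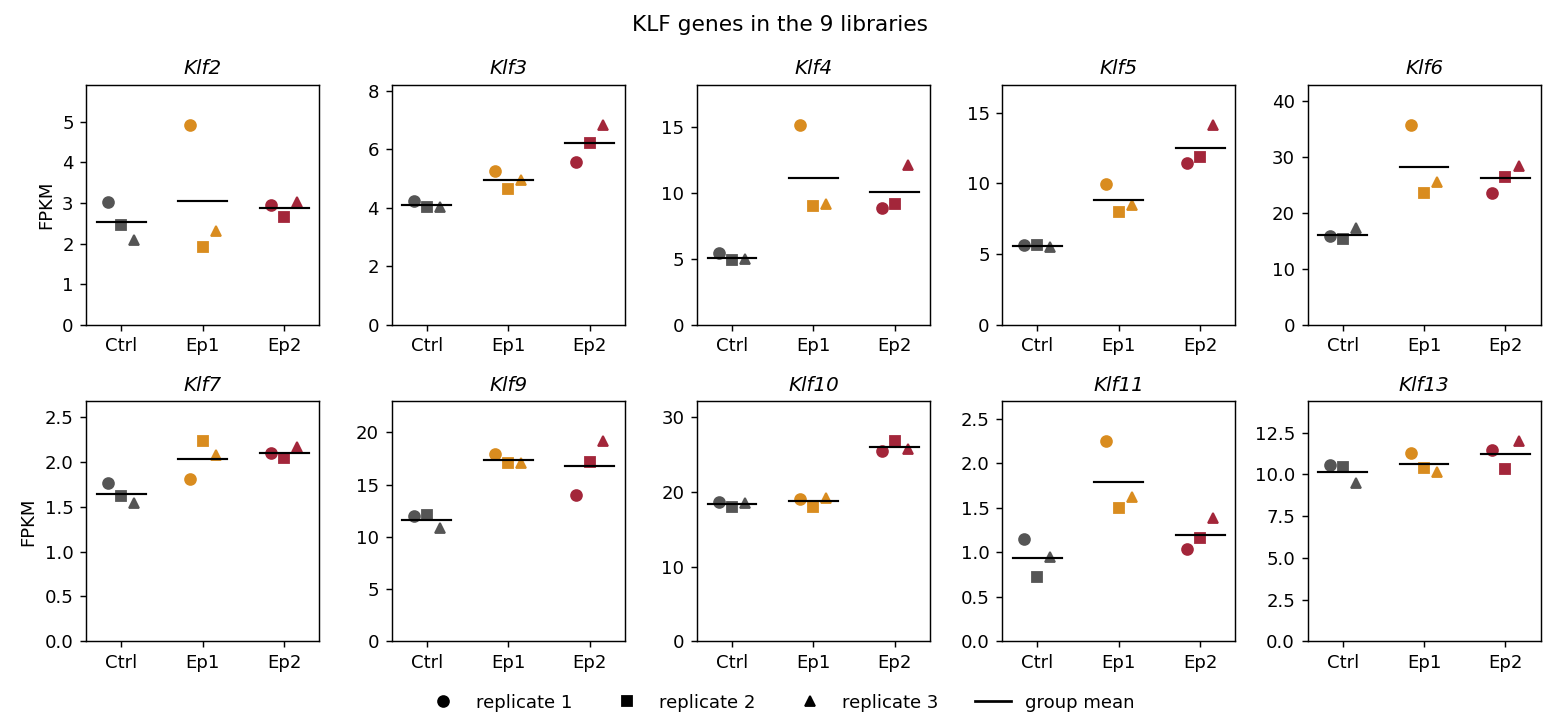
FPKM (y axis, from 0) of the 10 KLF genes in the 9 libraries by group, with a marker shape for each replicate number and a line for the group mean (n = 3). Klf3 and Klf5 step up from Ctrl to Ep1 to Ep2, Klf10 is higher in the 3 Ep2 libraries alone, and Ep1 replicate 1 stands above the other Ep1 libraries for Klf2 (4.93 FPKM), Klf4 (15.2) and Klf6 (35.8).

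The second question was whether the 2 light doses differed. Klf3, Klf5 and Klf10 were higher in Ep2 than in Ep1, by 0.27 (SE 0.071, adjusted p = 0.0124), 0.46 (SE 0.089, adjusted p = 0.00278) and 0.45 (SE 0.042, adjusted p = 4.97e-05) on the log2 scale. For the same genes all Ep2 libraries lay above all Ep1 libraries. These 3 of 10 stood against 18.8% of all tested genes that were higher in Ep2 than in Ep1 and 24.1% whose libraries separated upwards. With a log2 fold change above 0.6 required, 0 KLF genes and 1.94% of all genes were higher. The call of Klf3 was lost without Ep1 replicate 2 (adjusted p = 0.0509). None of the 10 was called lower, against 25.2% of all genes. At an unadjusted p below 0.05 there was 1, Klf11, whose Ep2 libraries all lay below those of Ep1 (as for 30.3% of all genes), with a difference of -0.34 (95% interval -0.63 to -0.05, adjusted p = 0.0548) that passed the threshold with voom (-0.58, adjusted p = 0.0166). After median centring the split of all genes turned from 2206 higher and 2950 lower to 2974 higher and 2383 lower, with 3 KLF genes called in both.

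For Klf4, Klf6, Klf7 and Klf9 no difference between the doses was called. The difference of Ep2 from Ep1 was -0.11 for Klf4 (95% interval -0.54 to 0.33), -0.09 for Klf6 (-0.41 to 0.23), 0.03 for Klf7 (-0.13 to 0.20) and -0.06 for Klf9 (-0.27 to 0.15). Klf4 has an interval that holds a rise of the size seen for Klf3 (0.27), whereas the interval of Klf6 ends below it. Without Ep1 replicate 1 their differences were 0.12 and 0.09.

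The libraries of a group were not alike in their KLF levels. Within Ep1, replicate 1 held the highest value for 8 of 10 KLF genes, whereas it was the highest of the 3 for 35.6% of all tested genes. Within Ep2, replicate 3 was highest for 9 of 10 (33.5% of all genes), and within Ctrl, replicate 1 for 8 of 10 (32.9%). Of 6 early response genes, picked after the values were seen, 5 were highest in Ep1 replicate 1 among the Ep1 libraries, and 5 in Ep2 replicate 3 among the Ep2 libraries. Atf3, a stress-induced factor, had 33.8, 8.36 and 11.2 FPKM in Ep1 and 5.38, 6.30 and 13.9 in Ep2, against 1.73 to 2.21 in Ctrl. Fos had 16.1, 4.66 and 4.51 FPKM in Ep1 and 2.54, 1.70 and 4.10 in Ep2, and Nr4a1 had 21.1, 10.6 and 11.8 and then 8.46, 9.92 and 17.3. Fosb and Egr1 were also highest in replicate 1 of Ep1 (10.9 and 11.3 FPKM), while Ier2 was lowest there (62.3 FPKM, against 65.0 and 67.2). In Ep2, Egr1 was highest in replicate 1 (5.80, 4.43 and 5.61 FPKM), as was Dusp1 of the glucocorticoid list (15.9, 9.53 and 10.7 FPKM), and Ier2 was nearly even (54.3, 56.9 and 57.1). Without Ep1 replicate 1, 4 KLF genes were called in Ep1 (Klf4, Klf5, Klf6 and Klf9), and without Ep2 replicate 3, 6 were called in Ep2. What set these libraries apart was not tested.

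**Figure D3:**
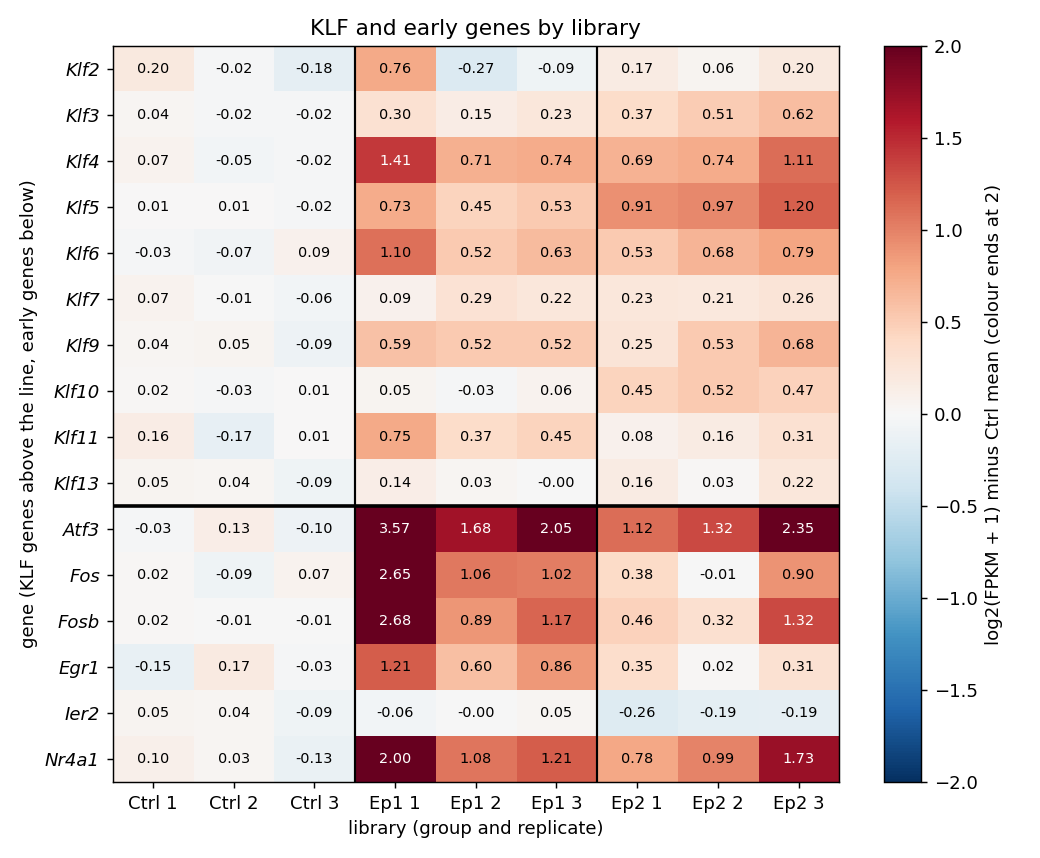
Log2(FPKM + 1) minus the Ctrl mean for the KLF genes (above the line) and 6 early response genes (below) in each library, with each value printed and the colour scale ending at 2. Ep1 replicate 1 and Ep2 replicate 3 hold the highest values of their groups for Klf4, Atf3 and Nr4a1, while Klf10 is nearly even within each group.

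Patterns across the 9 libraries were compared by the root mean square (RMS) difference between genes on the log2(FPKM + 1) scale, each centred on its own mean. Among the 10, the closest pairs were Klf7 with Klf13 (0.107), Klf3 with Klf10 (0.109) and Klf4 with Klf6 (0.131), and the farthest was Klf4 with Klf10 (0.434). The difference is not scaled to the spread of the genes, so genes that change little lie close whatever their patterns. For Klf7 with Klf13 it was near the RMS spread of Klf7 around its own mean (0.118). For Klf4 with Klf6 it was small against their spreads (0.479 and 0.373). Of all tested genes, those nearest to Klf4 were Rhob (a small GTPase, 0.070) and Ptgs2 (cyclooxygenase, 0.087), where the RMS spread of Klf4 itself was 0.479. Nearest to Klf5, with a spread of 0.432, were Pvr (the poliovirus receptor, 0.065) and Thbs1 (thrombospondin, 0.071). For Klf6 (spread 0.373) these were Pmaip1 (the apoptosis gene NOXA, 0.10) and Insig1 (a regulator of sterol synthesis, 0.110). Klf3 (spread 0.216) lay next to Tshz1 (0.022) and Rapgef2 (0.035), and Klf10 (spread 0.222) next to Zadh2 (0.034) and Wsb2 (0.037). Klf9 (spread 0.268) lay next to E2f3 and Coq10b (0.058 each), Klf11 (spread 0.254) next to Jund (0.074) and Gm13669 (0.096), and Klf7 (spread 0.118) next to Rrm2b and Mcc (0.048 each). All genes were measured in the same libraries, with the same treatments and depths, so these distances describe likeness only.

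Of the 7 other KLF genes, Klf12 and Klf16 passed the filter. Klf12, a CtBP-binding repressor like Klf3, rose in Ep2 from 1.04 to 1.51 mean FPKM (log2 fold change 0.30, adjusted p = 0.0202), a call lost without Ctrl replicate 1 or Ep2 replicate 3. In Ep1 it had -0.07 (adjusted p = 0.633), and it was higher in Ep2 than in Ep1 (0.37, adjusted p = 0.00904). Klf16 was called at neither dose, nor with voom (log2 fold change 0.27, adjusted p = 0.148 in Ep1, and -0.11, adjusted p = 0.447 in Ep2). Between the doses Klf16 was lower in Ep2, with 28.1 against 36.4 mean FPKM (-0.38, adjusted p = 0.0232, and also with voom), a call lost without any 1 of the Ep1 libraries (adjusted p up to 0.0708) and without a filter (0.0634). Of 9 SP genes, 3 passed the filter. In Ep1, Sp1 (0.26, adjusted p = 0.0287) and Sp2 (0.30, adjusted p = 0.0358) rose, 2 of 3 against 6.32% of all genes. Sp3 had 0.20 there (adjusted p = 0.0762) and was called with voom. The calls of Sp1 and Sp2 were both lost without a filter (adjusted p = 0.0839 and 0.108). Both were also lost without Ctrl replicate 2 or 3, or Ep1 replicate 1 or 3 (up to 0.121). In Ep2 none of the 3 was called with limma, with 1 (Sp3) at an unadjusted p below 0.05 and with voom (0.15, adjusted p = 0.0773 with limma).

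Upstream of KLF2 and KLF4, 6 of 8 genes of the MEKK, MEK5, ERK5 and MEF2 route were tested. In Ep1, Map3k2, which encodes the MEK5 activator MEKK2, rose (log2 fold change 0.35, adjusted p = 0.0138), and voom also called Mef2a and Mef2d. In Ep2, Map3k2 (0.63, adjusted p = 5.33e-05), Map2k5 (MEK5, 0.22), Mef2a (0.41) and Mef2d (0.35) rose and Map3k3 fell (-0.14, adjusted p = 0.0141). The call of Map3k3 was lost after median centring. The median of the 6 was 0.17 in Ep1 and 0.28 in Ep2. The 1 of 6 that rose in Ep1 stands against 6.32% of all genes. In Ep2, 4 of 6 rose and 1 fell, against 23.9% and 29.3% of all genes. Mapk7, which encodes ERK5, had -0.13 in Ep1 (adjusted p = 0.149) and 0.01 in Ep2 (adjusted p = 0.913).

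Genes known to respond to KLF2 and KLF4 in endothelium did not follow 1 direction. Of 8 induced genes only Thbd, Ass1 and Plat passed the filter. In Ep1 limma and voom called 0 of the 3, and Plat (0.16, adjusted p = 0.15) was the 1 gene at an unadjusted p below 0.05. In Ep2, Thbd (thrombomodulin, 1.37 to 2.86 mean FPKM, log2 fold change 0.69, adjusted p = 0.00108) and Plat (tissue plasminogen activator, 0.43, adjusted p = 0.000593) rose, and Ass1 (argininosuccinate synthase) fell from 2.82 to 1.33 mean FPKM (-0.71, adjusted p = 0.00135). Of 9 genes known as repressed by these factors, 6 were tested, and none fell. In Ep1, 0 of 6 is near the share of all genes that fell (4.97%), and in Ep2 29.3% of all genes fell. Sele (E-selectin, 0.52, adjusted p = 0.00873) and F3 (tissue factor, 0.32, adjusted p = 0.013) rose in Ep1. In Ep2 these rose (0.86 and 0.54) together with Angpt2 (0.58) and Ace (0.69), while Ccl2 had -0.08 at each dose (adjusted p = 0.569 and 0.471). At an unadjusted p below 0.05, and with voom, 0 of the 6 were lower at either dose. Of all genes, voom called 844 of 14112 lower in Ep1 and 3673 in Ep2. At the unadjusted threshold the share of all genes is not given here, so no comparison with it can be made. The median of the 6 was 0.01 in Ep1 and 0.56 in Ep2. The 2 of 6 that rose in Ep1 and 4 of 6 in Ep2 stand against 6.32% and 23.9% of all genes. Of the induced genes, 2 of 3 rose and 1 fell in Ep2, against 23.9% and 29.3%.

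Among 10 genes of TGF-β signalling, which induces Klf10 and Klf11, 9 were tested. The receptor gene Tgfbr1 (log2 fold change 0.47, adjusted p = 0.0266), Smad4 (0.17, adjusted p = 0.0473) and the feedback gene Skil (0.34, adjusted p = 0.0158) rose in Ep1, where Tgfb3 had -0.13 (adjusted p = 0.295). Without a filter all 3 calls were lost (adjusted p = 0.0861, 0.117 and 0.0511). The call of Smad4 was also lost after median centring (0.0583). It was lost too without any 1 of the Ctrl or Ep1 libraries or Ep2 replicate 2 (up to 0.155). In Ep2, Tgfbr1, Smad4 and Skil rose with Tgfbr2 (0.51, adjusted p = 6.71e-05) and Smad3 (0.15), while Tgfb3 (-0.28) and the inhibitor Smad7 (-0.23, adjusted p = 0.00695) fell. The 3 of 9 that rose in Ep1 stand against 6.32% of all genes. In Ep2, 5 of 9 rose and 2 fell, against 23.9% and 29.3% of all genes. Of 7 glucocorticoid genes, 6 were tested. Per1 (0.70, adjusted p = 0.00538), Sgk1 (0.55) and Dusp1 (1.15, adjusted p = 0.0387) rose in Ep1, and Fkbp5 had -0.11 (adjusted p = 0.153). The call of Dusp1 was lost with voom (adjusted p = 0.0799), with Ep1 and Ctrl fitted alone (0.055), without a filter (0.0839), and in 7 of 9 omissions of a library (up to 0.114, without Ctrl replicate 2). In Ep2 the receptor gene Nr3c1 (0.31), Per1 (0.62, adjusted p = 0.000297), Tsc22d3 (0.32) and Sgk1 (0.31) rose, and Fkbp5 (-0.28, adjusted p = 0.000857) fell. The 3 of 6 glucocorticoid genes that rose in Ep1 stand against 6.32% of all genes. In Ep2, 4 of 6 rose and 1 fell, against 23.9% and 29.3%.

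All 12 coregulators and ubiquitin ligases of KLFs passed the filter. Crebbp, whose product acetylates KLFs, rose in Ep1 (log2 fold change 0.39, adjusted p = 0.0142). Sin3b had -0.20 in Ep1 (adjusted p = 0.0976) and Ep300 0.22 (adjusted p = 0.0626), and voom called both. In Ep2 the acetyltransferase genes Crebbp (0.52), Ep300 (0.44) and Kat2b (0.70, adjusted p = 0.000107) rose, whereas Sin3a (-0.47), Hdac1 (-0.44, adjusted p = 4.44e-05) and Hdac3 (-0.30), which belong to corepressor complexes, and Fbxw7 (-0.20), a ligase for KLF5, fell. These 3 of 12 higher and 4 of 12 lower are near the shares of all genes (23.9% and 29.3%), and Sin3b (0.01) and Hdac2 (0.07) were not called. Ctbp1 and Ctbp2, the partners of KLF3, were not called. Over all these lists, 47 genes were tested, of which 12 were called in Ep1 and 32 in Ep2, against 11.3% and 53.2% of all genes called in either direction. Of the calls in Ep1, 9 were lost without Ctrl replicate 2, 8 without Ep1 replicate 3 and 6 each without Ctrl replicate 1 or Ep1 replicate 1, while Per1, Sele and Sgk1 kept theirs under each omission. Without a filter, 6 of the 12 were lost (Dusp1, Skil, Smad4, Sp1, Sp2 and Tgfbr1). Of the 32 called in Ep2, at most 4 were lost by the omission of any 1 library, among them Fbxw7, Klf12, Map3k3, Sgk1, Smad3, Tgfb3 and Tsc22d3 in 1 or more of these settings. Median centring cost Fbxw7 and Map3k3 their calls in Ep2, and the fit without a filter cost Tsc22d3 its call.

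**Figure D4:**
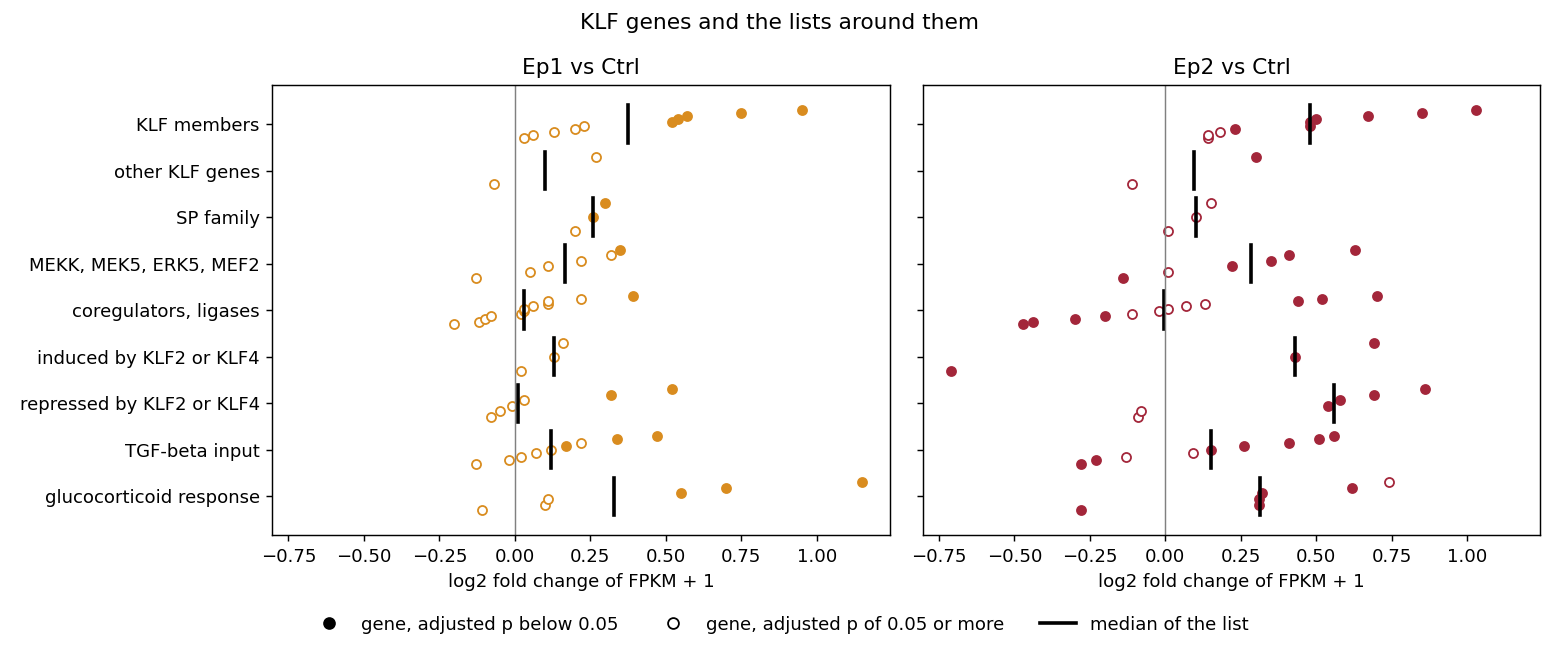
Log2 fold changes of FPKM + 1 (x axis) of the tested genes of each list in Ep1 vs Ctrl and Ep2 vs Ctrl, filled for an adjusted p below 0.05, with a bar at the median of each list. The KLF genes lie above 0 at both doses (medians 0.38 and 0.48), the coregulators spread to both sides in Ep2, and the genes known as repressed by KLF2 or KLF4 have a median of 0.56 in Ep2.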

How the data were processed

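RNA sequencing of 9 B.END3 libraries (Ctrl, Ep1 and Ep2, 3 each, grouped by library title) was used. The authors deposited 1 FPKM value per gene and library, normalised for gene length and library size, and the 9 single-library tables equal the joint table. The submitters' processing notes name Bowtie 0.12.2 and mm8 and the methods GRCm39, but the listed coordinates overlap GRCm38.p6 RefSeq genes for 99.9% of 37620 names, so positions are given on GRCm38. FPKM times gene length gave whole fragments (within 0.05) in all libraries, from which depth was taken.

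Genes reaching 1 FPKM in 3 or more libraries (11727) were kept, and their log2(FPKM + 1) values were fitted in 1 limma model without covariates over all libraries (lmFit, then eBayes with a trend and robust), with Benjamini-Hochberg adjustment within each comparison and calls at an adjusted p below 0.05. The pseudocount of 1 understates changes of low genes. The procedure was also run on simulated fragments, with the same spread setting for all genes and changes in few genes. These libraries differ in both, so that run cannot give their error rates. Alternatives were a pseudocount of 0.1, no filter, a minimum of 5 FPKM, median centring, a replicate block, voom on recovered fragments (at least 10 in at least 3 libraries), only the groups compared, a minimum fold change of 0.6 (log2), and the omission of each library.

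The KLF genes and the other lists were chosen with earlier results of these data known. A gene of these lists is not reported here and enters none of their counts. Named from the other lists were the gene with the smallest adjusted p in each direction and dose, plus further genes named after their values were seen, and the 2 genes nearest to each called KLF gene. Promoters (GRCm38.p6, RefSeq) were searched on both strands. Versions were R 4.3.3, limma 3.58.1, Python 3.11.15, numpy 2.4.6, pandas 2.3.3 and matplotlib 3.10.9.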

Additional observations from a re-analysis of the deposited data

How the results depend on the processing

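The number of KLF genes called in Ep1 moved from 5 to 3 without a filter and to 2 with a minimum log2 fold change of 0.6, and from 1 to 6 over the omission of single libraries, with 1 without Ep1 replicate 3, and 2 without Ctrl replicate 1 or Ctrl replicate 2. In Ep2 it moved from 7 to 3 with the minimum fold change and from 6 to 8 over the omissions. For Ep2 vs Ep1 it moved from 3 to 0 with the minimum fold change, which is past what any of these differences reached, and from 3 to 4 over the omissions. Fewer samples and, without a filter, more genes tested enter these settings. The minimum fold change was applied to log2(FPKM + 1), which understates changes of low genes. The replicate block gave 5, 7 and 3 calls. No effect shared by same-numbered libraries was visible. Correlations of their deviations lay between -0.0565 and 0.0744, against -0.108 to 0.153 for libraries of different numbers. Whether same-numbered libraries were prepared together is not stated, and these correlations cannot decide it. A shared number is all that the block models. The block cost Smad4 and Sp2 their calls in Ep1.

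Fold changes that turned sign were those of uncalled results. Over the omissions, Klf2 in Ep1 ranged from -0.18 (without Ep1 replicate 1) to 0.33. For Ep2 vs Ep1, Klf2 ranged from -0.19 to 0.32, with -0.19 and -0.10 without Ep1 replicates 2 and 3, and -0.00 and -0.02 without Ep2 replicates 1 and 3. The difference between doses ranged from -0.24 to 0.12 for Klf4, from -0.20 to 0.09 for Klf6 and from -0.02 to 0.08 for Klf7, each turning without Ep1 replicate 1, and from -0.16 to 0.06 for Klf9, turning without Ep2 replicate 1. The causes were not tested. No other KLF fold change turned sign under the alternatives run. The same alternatives for the other lists were added after seeing the data and turned no called gene. Klf2, Klf7 and Klf11 had the fewest fragments of the KLF genes followed, and the part of depth in their spread was not tested.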
